A study of Mus musculus with 11 samples.

Results

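The 10 genes described here, Npnt, Egfl6, Postn, Aspn, Tnc, Scx, Angptl7, Ptn, Nrep and Abi3bp, were given as a list of extracellular matrix and associated genes and were matched by Ensembl identifier to gene symbols. All 10 were found among the 55536 Ensembl genes of the count files, and all 10 were among the 20307 genes that passed the filter on low counts. RNA was measured in 11 libraries of epidermal cells that were released with thermolysin from the dorsal skin of male CD4Cre R26-tdT (C57Bl6/N) mice and sorted by FACS for CD49f, CD34, SCA-1 and the lineage reporter tdT. The 4 groups were tdT+ CD49f+CD34+ (n = 3), tdTneg CD49f+CD34+ (n = 3), tdT+ CD49f+CD34+SCA-1+ (n = 3) and tdTneg CD49f+CD34+SCA-1+ (n = 2), where CD49f+CD34+ cells were gated as negative for SCA-1. Cells of 2 mice were pooled for each library, at an age of 29 weeks for replicate 1 and 32 weeks for replicates 2 and 3. Libraries with the same replicate number were read as sorts of the same pool, which gives 3 pools in total. All groups carried the same alleles. A Cd4-driven Cre also marks T cells and their precursors, so tdT records past Cre activity in any cell of a sort and is not a marker of keratinocytes.

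The bulge is the part of the hair follicle outer root sheath in which CD34+ stem cells rest beside the basement membrane. Bulge keratinocytes are known to deposit part of that matrix themselves. Nephronectin, the product of Npnt, and EGFL6 bind integrins on neighbouring arrector pili muscle cells and sensory nerve endings, tenascin C and periostin are matricellular proteins that alter adhesion, and scleraxis, encoded by Scx, is a transcription factor best known from tendon.

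On GRCm38, Npnt lies at chr3:132881745-132950291 and Tnc at chr4:63959785-64047015, both on the minus strand, and Postn at chr3:54361109-54391037 on the plus strand. Egfl6 is at chrX:166523007-166585720 and Ptn at chr6:36714929-36810220 (both minus), Aspn at chr13:49544443-49567565 and Abi3bp at chr16:56477878-56690135 (both plus), and Angptl7 at chr4:148495183-148500460 (minus). Scx spans chr15:76457452-76459458 on the plus strand, inside an intron of Bop1, which is on the minus strand. No exon of Scx overlaps an exon of another gene. The library kit does not mark strand, so reads from unspliced Bop1 RNA within Scx cannot be told apart from Scx reads. Bop1 held 46.1 to 93.9 normalized CPM over the 11 libraries and had a log2 fold change between populations of 0.31 (edgeR adjusted p = 0.191). The part of unspliced Bop1 RNA in the Scx counts was not tested. Tnc shares 176 exon bases, 2.26% of its exon length, with the antisense gene 8030451A03Rik, which reached at most 1.06 CPM.

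Because most of these genes moved together between populations, the sequence before their first transcribed base was read from the RefSeq promoter table (GRCm38.p6), which matched 7 of the 10 genes. The 200 bases before the start are shown for 4 of them, 5′ to 3′ on the strand of the gene: Postn as the most abundant of the 10, Tnc as the gene with the largest difference between tdT+ and tdTneg cells, Angptl7 as the gene with the largest difference between populations, and Egfl6 as the other gene with the same motif as Angptl7. Capitals mark TATAAA (the letters of a TATA box, at any distance from the start) and CATCTG (an E-box of the kind bound by scleraxis). Each was searched on both strands.
Postn, chr3:54360907-54361106, plus strand: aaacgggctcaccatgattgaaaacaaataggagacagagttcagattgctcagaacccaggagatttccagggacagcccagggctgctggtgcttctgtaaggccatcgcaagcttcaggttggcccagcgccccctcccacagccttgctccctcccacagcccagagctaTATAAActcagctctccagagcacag
Tnc, chr4:64047016-64047215, minus strand: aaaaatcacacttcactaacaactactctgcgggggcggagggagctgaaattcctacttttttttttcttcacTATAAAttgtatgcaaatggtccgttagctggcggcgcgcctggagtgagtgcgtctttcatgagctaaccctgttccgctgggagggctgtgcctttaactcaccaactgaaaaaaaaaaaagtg
Angptl7, chr4:148500463-148500662, minus strand: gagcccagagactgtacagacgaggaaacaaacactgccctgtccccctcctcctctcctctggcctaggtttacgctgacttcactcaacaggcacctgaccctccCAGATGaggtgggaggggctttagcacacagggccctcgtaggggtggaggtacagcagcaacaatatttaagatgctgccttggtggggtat
Egfl6, chrX:166585717-166585916, minus strand: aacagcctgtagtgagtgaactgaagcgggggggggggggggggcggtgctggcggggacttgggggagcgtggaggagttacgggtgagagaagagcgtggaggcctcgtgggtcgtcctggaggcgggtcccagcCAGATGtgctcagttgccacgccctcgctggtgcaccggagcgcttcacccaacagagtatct
In the 250 bases before the start, TATAAA was found in 3 of the 7 genes, Postn, Aspn and Tnc, and in 12.4% of all 32841 promoters of the table. It began 26 bases before the first transcribed base in Postn and 126 bases before it in Tnc. In Aspn it lay 207 bases before the start, and 178 bases before it on the strand opposite to the gene. CATCTG was found in 2 of the 7, Egfl6 and Angptl7, on the strand opposite to the gene (read as CAGATG above) 63 and 93 bases before the start, and in 14.4% of all promoters. Letters bound by 4 factors of bulge cells were also searched. These were CTTTGA (TCF7L1), TAATTA (LHX2), GGAAAA (NFATC1) and ACAATG (SOX9), which were in 13.8%, 4.84%, 20.4% and 10.7% of all promoters and in 0 of these 7 windows.

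Library totals ran from 17409131 to 46542177 counts. The libraries stood apart in a pair of features that touch the results. A row outside the Ensembl genes, named by a sequence accession, held 133 to 307 CPM in 5 of the 6 tdT+ libraries and 2.54 to 4.89 CPM in the 5 tdTneg libraries, but 2.05 CPM in the library labelled tdT+ CD49f+CD34+ replicate 2, so tdT results below are also given with it left out. Albumin (Alb) held 4393 to 9564 CPM in 3 CD49f+CD34+ libraries, tdT+ replicates 1 and 2 and tdTneg replicate 2, against 3.04 to 37.3 CPM in the other 8, and the summed level of 8 liver genes was 10494 to 21729 CPM in these 3 libraries and 6.65 to 81.0 CPM in the others. The markers of the sorted cells matched their labels in part. All 8 bulge markers were lower in CD49f+CD34+SCA-1+ than in CD49f+CD34+ cells and all 5 interfollicular epidermis markers were higher. Cd34 itself, used for both gates, averaged 682 CPM in tdT+ and 877 CPM in tdTneg CD49f+CD34+ cells, 351 CPM in tdTneg CD49f+CD34+SCA-1+ cells and 27.4 CPM in tdT+ CD49f+CD34+SCA-1+ cells. The summed level of 5 endothelial markers was 1459 to 1520 CPM in tdTneg CD49f+CD34+SCA-1+ cells and 4.96 to 377 CPM elsewhere, and that of 5 T cell markers was 305 to 843 CPM in tdT+ CD49f+CD34+SCA-1+ cells and 18.8 to 122 CPM elsewhere.

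Levels between genes were compared as normalized CPM per kilobase of exon. In tdT+ CD49f+CD34+ cells Postn was highest at 685 ± 275 CPM per kb (SD, n = 3), the gene of rank 44 among all genes tested, followed by Ptn at 327 ± 145 CPM per kb, rank 91. Aspn at 61.0 ± 47.5, Nrep at 35.5 ± 25.2, Egfl6 at 27.7 ± 13.8, Scx at 25.9 ± 7.87, Npnt at 24.6 ± 3.98, Angptl7 at 16.2 ± 8.42, Tnc at 11.7 ± 4.40 and Abi3bp at 11.6 ± 5.56 CPM per kb came next, and neighbours in this lower part of the order differed by less than the larger of their SDs. In tdTneg CD49f+CD34+ cells Postn (665 ± 221 CPM per kb) and Ptn (331 ± 160 CPM per kb) again led, followed by Npnt (52.9 ± 5.53 CPM per kb) and Tnc (47.8 ± 14.3 CPM per kb). Postn stayed the most abundant of the 10 in CD49f+CD34+SCA-1+ cells, at 73.2 ± 44.7 CPM per kb in tdT+ (n = 3) and 200.4 ± 62.2 CPM per kb in tdTneg cells (n = 2), while Angptl7 was the least abundant in both, at 0.42 ± 0.31 and 1.58 ± 0.016 CPM per kb.

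**Figure D1:**
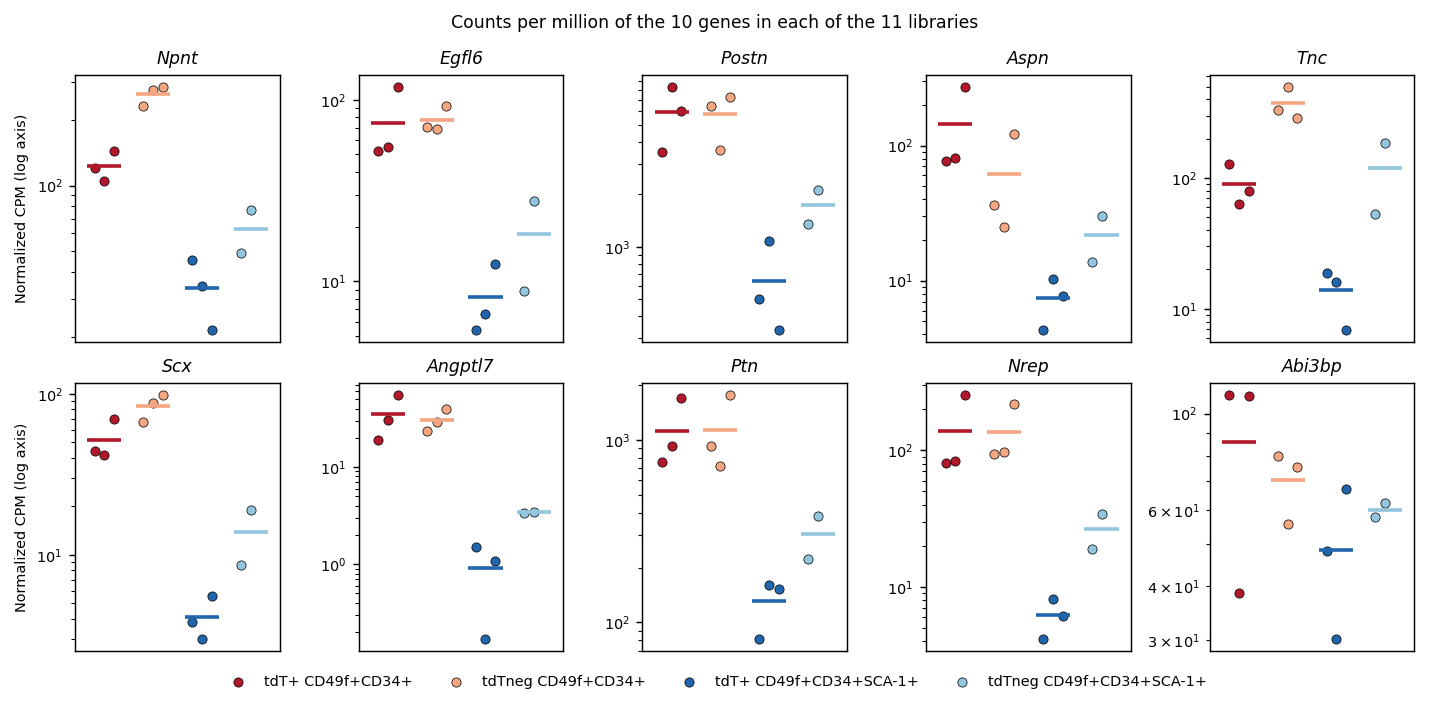
Normalized CPM (log axis) of each of the 10 genes, 1 point per library and a bar at the mean of each of the 4 groups. For 7 of the 10 genes all 5 CD49f+CD34+SCA-1+ libraries lie below all 6 CD49f+CD34+ libraries; the groups overlap for Aspn, Tnc and Abi3bp.

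The first comparison asked how CD49f+CD34+SCA-1+ cells differed from CD49f+CD34+ cells, with the tdT+ and the tdTneg difference weighted equally. Of the 10 genes, 9 fell (edgeR adjusted p under 0.05 with a log2 fold change beyond -1), all but Abi3bp. Of all genes tested, 6.79% were called lower. The 10 genes and the gene lists below were chosen with earlier results of these data known. Such counts, here and below, describe the chosen genes and are not a test against the share of all genes. The median log2 fold change of the 10 genes was -2.57 and that of all genes was -0.09. For 7 of the 10 genes every CD49f+CD34+SCA-1+ library was below every CD49f+CD34+ library, which held for 5.67% of all genes. DESeq2 also called 9, against 10.2% of all genes. The edgeR count was 9 without the 3 libraries high in Alb, 9 with the library labelled tdT+ CD49f+CD34+ replicate 2 left out and 8 without tdTneg CD49f+CD34+SCA-1+ replicate 1. These cells were sorted in bulk, so fewer cells with such RNA and less RNA per cell cannot be told apart. The 8 bulge markers fell over a like range, from -1.09 for Nfatc1 to -3.66 for Krt24 on the log2 scale with a median of -2.46, and the part of cell composition in the change of the 10 genes was not tested.

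The ligands and matrix proteins of the bulge basement membrane came first by role. Npnt, the ligand of integrin alpha8 beta1, had 121, 105 and 145 CPM in tdT+ and 234, 277 and 286 CPM in tdTneg CD49f+CD34+ cells, against 45.2, 34.5 and 21.4 CPM in tdT+ and 48.7 and 76.8 CPM in tdTneg CD49f+CD34+SCA-1+ cells. No library of one population reached the other, and the log2 fold change was -1.98 ± 0.21 (SE, edgeR adjusted p = 0.00037). Egfl6, which encodes a secreted protein with EGF repeats that binds integrins, had 51.9, 54.8 and 118 CPM in tdT+ and 70.5, 68.7 and 92.8 CPM in tdTneg CD49f+CD34+ cells. Its levels were 5.38, 6.59 and 12.5 CPM in tdT+ and 8.89 and 27.6 CPM in tdTneg CD49f+CD34+SCA-1+ cells, for a log2 fold change of -2.64 ± 0.39 (edgeR adjusted p = 0.0015). Replicate 3 was the highest Egfl6 library of each group that had one.

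Among the matricellular genes, Postn, encoding periostin, had 3525, 8308 and 6046 CPM in tdT+ and 6431, 3622 and 7294 CPM in tdTneg CD49f+CD34+ cells. In CD49f+CD34+SCA-1+ cells it had 502, 1075 and 333 CPM in tdT+ and 1361 and 2127 CPM in tdTneg libraries, and it fell by 2.48 ± 0.39 on the log2 scale (edgeR adjusted p = 0.0022). Tnc, encoding tenascin C, had 129, 63.0 and 80.1 CPM in tdT+ and 329, 498 and 288 CPM in tdTneg CD49f+CD34+ cells. Its CD49f+CD34+SCA-1+ values were 18.9, 16.01 and 6.86 CPM in tdT+ and 53.3 and 184 CPM in tdTneg libraries, so the populations overlapped only through tdTneg CD49f+CD34+SCA-1+ replicate 2, and the log2 fold change was -2.17 ± 0.40 (edgeR adjusted p = 0.0046). Aspn, which encodes asporin, a small leucine-rich matrix protein that binds collagen and TGF-beta, had 77.0, 81.2 and 273 CPM in tdT+ and 36.4, 24.9 and 122 CPM in tdTneg CD49f+CD34+ cells. It had 4.29, 10.3 and 7.64 CPM in tdT+ and 13.6 and 29.9 CPM in tdTneg CD49f+CD34+SCA-1+ cells. The higher of the latter was above the lowest CD49f+CD34+ library, and the log2 fold change was -2.89 ± 0.57 (edgeR adjusted p = 0.0068, and 0.055 without tdTneg CD49f+CD34+SCA-1+ replicate 1), or -3.53 without the 3 libraries high in Alb. Abi3bp, encoding a matrix protein that binds the SH3 domain of ABI3, had 110.2, 38.5 and 109.7 CPM in tdT+ and 79.7, 55.7 and 75.1 CPM in tdTneg CD49f+CD34+ cells, and 48.1, 30.2 and 67.0 CPM in tdT+ and 57.7 and 62.1 CPM in tdTneg CD49f+CD34+SCA-1+ cells. Its libraries overlapped throughout, and the log2 fold change of -0.53 had a 95% confidence interval from -1.18 to 0.12 (edgeR adjusted p = 0.232).

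The secreted factors followed. Angptl7, an angiopoietin-like protein of the matrix, had 19.2, 30.7 and 54.8 CPM in tdT+ and 23.5, 29.3 and 39.4 CPM in tdTneg CD49f+CD34+ cells. It had 1.49, 0.17 and 1.08 CPM in tdT+ and 3.39 and 3.43 CPM in tdTneg CD49f+CD34+SCA-1+ cells, for a log2 fold change of -4.19 ± 0.51 (edgeR adjusted p = 0.00063), the largest of the 10. The lowest of these values rested on 3 counts, so its size there is imprecise. Ptn, encoding the heparin-binding growth factor pleiotrophin, had 755, 929 and 1689 CPM in tdT+ and 925, 722 and 1757 CPM in tdTneg CD49f+CD34+ cells, and 81.3, 159.5 and 153 CPM in tdT+ and 223 and 385 CPM in tdTneg CD49f+CD34+SCA-1+ cells (log2 fold change -2.50 ± 0.35, edgeR adjusted p = 0.0012). The populations did not overlap for either gene.

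Scx and Nrep act inside the cell. Scx had 44.2, 41.6 and 70.2 CPM in tdT+ and 67.3, 88.1 and 98.0 CPM in tdTneg CD49f+CD34+ cells. In CD49f+CD34+SCA-1+ cells it had 3.81, 3.01 and 5.52 CPM in tdT+ and 8.70 and 19.0 CPM in tdTneg libraries, a log2 fold change of -3.13 ± 0.28 with the smallest adjusted p of the 10 genes (edgeR adjusted p = 0.00018). Nrep, encoding a small neuronal regeneration-related protein, had 80.3, 83.3 and 252.5 CPM in tdT+ and 94.1, 96.9 and 216 CPM in tdTneg CD49f+CD34+ cells. It had 4.18, 8.23 and 6.19 CPM in tdT+ and 18.9 and 34.5 CPM in tdTneg CD49f+CD34+SCA-1+ cells, and fell by 3.42 ± 0.44 on the log2 scale (edgeR adjusted p = 0.00079). For both genes all CD49f+CD34+SCA-1+ libraries were below all CD49f+CD34+ libraries.

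Within tdT+ cells alone, 9 of the 10 genes fell, against 5.54% of all genes, with a median of -3.21 on the log2 scale. For these 9 every tdT+ CD49f+CD34+SCA-1+ library was below every tdT+ CD49f+CD34+ library, an order that 15% of all genes showed. The mean level in CD49f+CD34+SCA-1+ cells was 2.62% of that in CD49f+CD34+ cells for Angptl7, 4.47% for Nrep, 5.15% for Aspn, 7.92% for Scx, between 10.7% and 15.4% for Postn, Egfl6, Ptn and Tnc, 27.3% for Npnt and 56.2% for Abi3bp. Without the 3 libraries high in Alb, which leaves 1 tdT+ CD49f+CD34+ library, the log2 fold changes of Angptl7, Nrep, Aspn, Egfl6 and Ptn moved from -5.20, -4.49, -4.29, -3.20 and -3.10 to -5.83, -5.38, -5.24, -3.88 and -3.71. With each library left out they ran, in the same order, from -5.77 to -4.72, -4.77 to -3.73, -4.62 to -3.43, -3.65 to -2.71 and -3.32 to -2.68. Abi3bp had a log2 fold change of -0.83 (edgeR adjusted p = 0.18), but passed the threshold with the library labelled tdT+ CD49f+CD34+ replicate 2 left out (-1.18, 0.0326). Without the 3 libraries high in Alb its log2 fold change was -1.20.

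Within tdTneg cells, Npnt (-2.08), Scx (-2.61) and Angptl7 (-3.17) fell, 3 of the 10 genes against 1.45% of all genes, with edgeR adjusted p-values of 0.0093, 0.0099 and 0.032. The median of the 10 genes was -1.99 on the log2 scale, and for 8 of the 10, all but Aspn and Abi3bp, both CD49f+CD34+SCA-1+ libraries were below all 3 CD49f+CD34+ libraries, which held for 26.4% of all genes. Mean levels in CD49f+CD34+SCA-1+ cells were between 11.1% (Angptl7) and 85.4% (Abi3bp) of those in CD49f+CD34+ cells. With the replicate number as a block, 6 genes were called, the same 3 and Egfl6, Ptn and Nrep (edgeR adjusted p = 0.034, 0.035 and 0.033), and DESeq2 called 8, against 4.28% of all genes. The group held 2 libraries. Leaving out tdTneg CD49f+CD34+SCA-1+ replicate 1 left 0 calls by edgeR, and Angptl7 also lost its call without tdTneg CD49f+CD34+SCA-1+ replicate 2, tdT+ CD49f+CD34+SCA-1+ replicate 3 or tdTneg CD49f+CD34+ replicates 1 or 3 (adjusted p = 0.051 to 0.263 over these 5 libraries), while its log2 fold change stayed between -2.95 and -3.33. The count was 6 without tdT+ CD49f+CD34+ replicate 3 and 7 without the 3 libraries high in Alb, and Ptn was called without tdTneg CD49f+CD34+ replicate 2 (0.046).

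**Figure D2:**
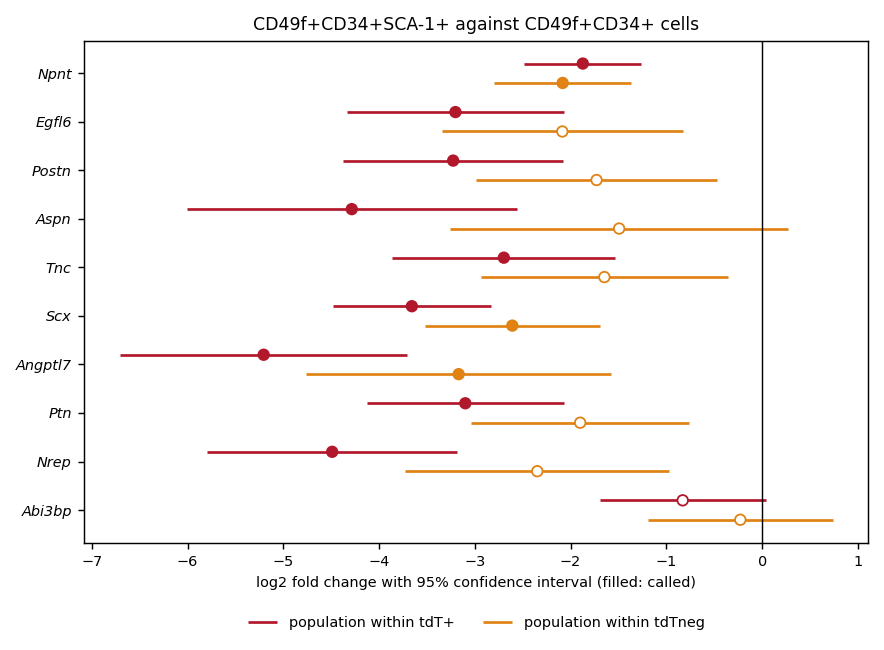
Log2 fold change of CD49f+CD34+SCA-1+ over CD49f+CD34+ cells for each gene, within tdT+ and within tdTneg cells, with 95% confidence intervals; filled points were called by edgeR. Within tdT+ cells 9 points are filled and within tdTneg cells 3, and Abi3bp crosses 0 in both.

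The next comparison asked whether tdT+ cells differed from tdTneg cells of the same population. In CD49f+CD34+ cells 0 of the 10 genes were called by edgeR, with 2 genes, or 0.00985%, called among all genes tested, and 2 of the 10 had an unadjusted p under 0.05, as did 8.42% of all genes. These 2 were Npnt and Tnc. As listed above, all 3 tdT+ libraries were below all 3 tdTneg libraries for both genes, an order that 10.9% of all genes also showed. Npnt was 2.15-fold lower in tdT+ cells by its means (log2 fold change -1.11 ± 0.27, edgeR adjusted p = 0.241) and Tnc 4.10-fold lower (-2.04 ± 0.51, adjusted p = 0.26). DESeq2 called both lower (adjusted p = 0.017 and 0.0036), against 0.168% of all genes, and so did edgeR when every gene with a count was kept (0.036 and 0.011). With the library labelled tdT+ CD49f+CD34+ replicate 2 left out, the log2 fold changes were -1.003 for Npnt and -1.83 for Tnc (edgeR adjusted p = 0.534 and 0.552). The other 8 genes had log2 fold changes between -0.70 for Scx and 1.23 for Aspn. Their intervals were wide: that of Postn ran from -1.01 to 1.10, that of Ptn from -0.96 to 0.93 and that of Aspn from -0.29 to 2.75. With the library labelled tdT+ CD49f+CD34+ replicate 2 left out, these 8 lay between -0.57 for Scx and 1.51 for Aspn. In that fit Egfl6, Postn and Ptn changed sign.

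In CD49f+CD34+SCA-1+ cells all 10 genes had lower mean levels in tdT+ than in tdTneg cells, and 2 of them fell, against 2.06% of all genes. Tnc was 8.51-fold lower by its means (log2 fold change -3.09 ± 0.56, edgeR adjusted p = 0.019), and Scx 3.37-fold lower (-1.75 ± 0.37, adjusted p = 0.0395). Nrep had a log2 fold change of -2.11 ± 0.57 that missed the threshold (adjusted p = 0.0996) and passed it with the replicate number as a block (adjusted p = 0.018). For 8 of the 10 genes, all but Egfl6 and Abi3bp, the 3 tdT+ libraries were below both tdTneg libraries, which held for 17.2% of all genes. DESeq2 called 5 genes, Tnc, Scx, Nrep, Angptl7 and Postn, against 4.8% of all genes. Both calls held with the library labelled tdT+ CD49f+CD34+ replicate 2 left out (adjusted p = 0.022 for Tnc and 0.044 for Scx), which enters this comparison only through the filter, the scaling and the shared estimate of the spread.

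Both calls lay close to the threshold. Tnc missed it without any of the 3 tdT+ CD49f+CD34+SCA-1+ libraries, with log2 fold changes of -3.37, -3.24 and -2.76 (adjusted p = 0.051, 0.054 and 0.064 without replicates 1, 2 and 3). Without tdTneg CD49f+CD34+SCA-1+ replicate 2 its value moved to -1.97 (adjusted p = 0.227). Scx also missed it without each of these 3 tdT+ libraries (-1.70, -1.62 and -2.02, adjusted p = 0.123, 0.100 and 0.057), and without tdTneg CD49f+CD34+SCA-1+ replicate 2 its value moved to -1.12 (0.467). Leaving out tdT+ CD49f+CD34+ replicate 1 or tdTneg CD49f+CD34+ replicates 1 or 3, which are not part of the comparison, left the Scx value at -1.75 with an adjusted p of 0.051 to 0.061, and with only the groups compared in the fit it was -1.78 (0.0653). Nrep was called without tdT+ CD49f+CD34+ replicate 3 (adjusted p = 0.029) and without the 3 libraries high in Alb (0.0079). In the same comparison 5 of the 8 bulge markers were called lower in tdT+ cells (Cd34, Lgr5, Lhx2, Tcf7l1 and Krt24) and 3 were not called (Krt15, Nfatc1 and Sox9). Lhx2 averaged 30.9 CPM in tdT+ and 199.8 CPM in tdTneg cells (log2 fold change -2.69, edgeR adjusted p = 0.0057), and Krt15, the most abundant of the 8, 4106 and 3584 CPM (0.20, 0.856). The summed level of the 8 overlapped between the groups, at 3353 to 5434 CPM in tdT+ and 4395 to 5422 CPM in tdTneg cells, while the endothelial markers given above did not. Of the other markers, 3 of 5 T cell markers were called higher in tdT+ cells and 1 of 5 endothelial markers lower. The sums of keratinocyte markers (26710 to 32979 CPM in tdT+ and 18607 to 21795 CPM in tdTneg cells) and of interfollicular epidermis markers (7407 to 9982 and 3068 to 6766 CPM) did not overlap, with 0 of 5 called by edgeR in each list. The part of these markers in the differences of Tnc and Scx was not tested.

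The tdT effect in CD49f+CD34+SCA-1+ cells minus that in CD49f+CD34+ cells was tested for each gene, and 0 of the 10 passed in edgeR, against 0.389% of all genes, with 3 of the 10 and 12.4% of all genes at an unadjusted p under 0.05. For Aspn the tdT effect was 1.23 within CD49f+CD34+ cells and -1.56 within the SCA-1+ population, a difference of -2.79 ± 1.02 on the log2 scale (edgeR adjusted p = 0.296). For Nrep the difference was -2.14 ± 0.76 (adjusted p = 0.284) and for Angptl7 -2.04 ± 0.85 (adjusted p = 0.371). With the library labelled tdT+ CD49f+CD34+ replicate 2 left out, the differences were -3.07 for Aspn, -2.40 for Nrep and -2.12 for Angptl7 (edgeR adjusted p = 0.339, 0.308 and 0.467). With each library left out in turn they ran from -3.79 to -1.93, -2.65 to -1.38 and -2.61 to -1.55. DESeq2 called Aspn and Nrep (adjusted p = 0.039 and 0.048), against 3.9% of all genes. All comparisons above share libraries, so their values for 1 gene are set side by side and are not independent of each other.

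**Figure D3:**
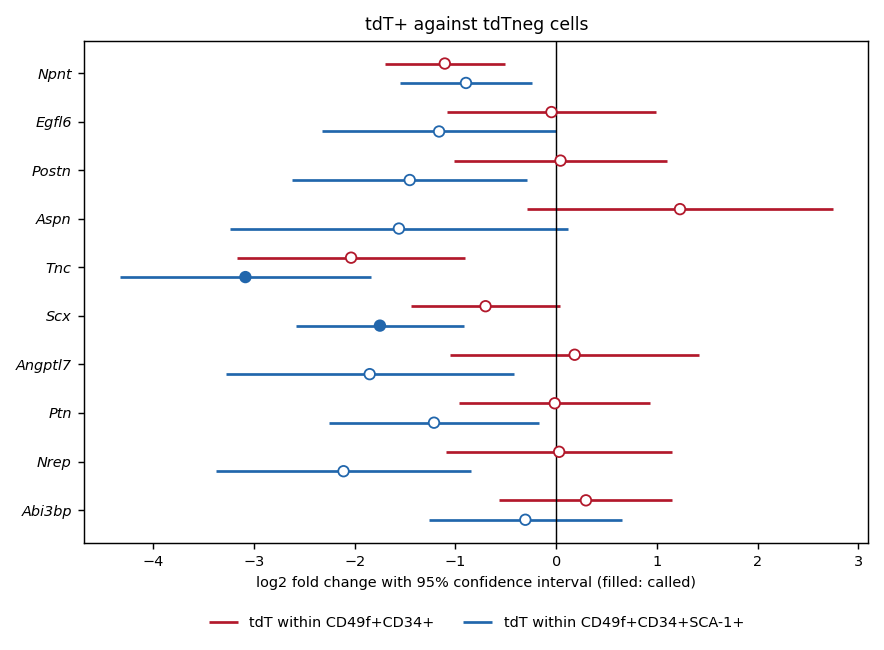
Log2 fold change of tdT+ over tdTneg cells for each gene in both populations, with 95% confidence intervals; filled points were called by edgeR. Npnt and Tnc lie below 0 with their whole interval in both populations, and in CD49f+CD34+SCA-1+ cells all 10 points lie below 0, with Tnc and Scx filled.

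Libraries of the same group differed in a pattern that the genes shared only in part. In CD49f+CD34+ cells replicate 3 was the highest library for Npnt, Aspn, Ptn, Nrep, Egfl6, Scx and Angptl7 in both tdT+ and tdTneg cells. For Aspn it lay 1.19 and 1.35 above the mean of its group on the log2 scale, for Nrep 1.08 and 0.79 and for Ptn 0.68 and 0.74. For Postn this held in tdTneg cells only, and for Tnc and Abi3bp in neither. The summed level of the 8 bulge markers was also highest in replicate 3, at 12758 CPM against 8380 and 8524 CPM in tdT+ and 15719 CPM against 12894 and 12897 CPM in tdTneg cells, and replicate 3 was the only tdT+ CD49f+CD34+ library not high in Alb. Their part in the pattern was not tested. The deviations of the 11 libraries from their group means had a Pearson correlation of 0.97 between Aspn and Ptn (Spearman 0.98), 0.97 between Aspn and Nrep (0.80), 0.94 between Ptn and Nrep (0.80), 0.92 between Egfl6 and Scx (0.79) and 0.79 between Npnt and Tnc (0.72). Between Postn and Abi3bp it was -0.57 (-0.59). These are descriptions over 11 libraries, of which those with the same replicate number were read as sharing mice. Replicates 2 and 3 came from mice of the same age.

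**Figure D4:**
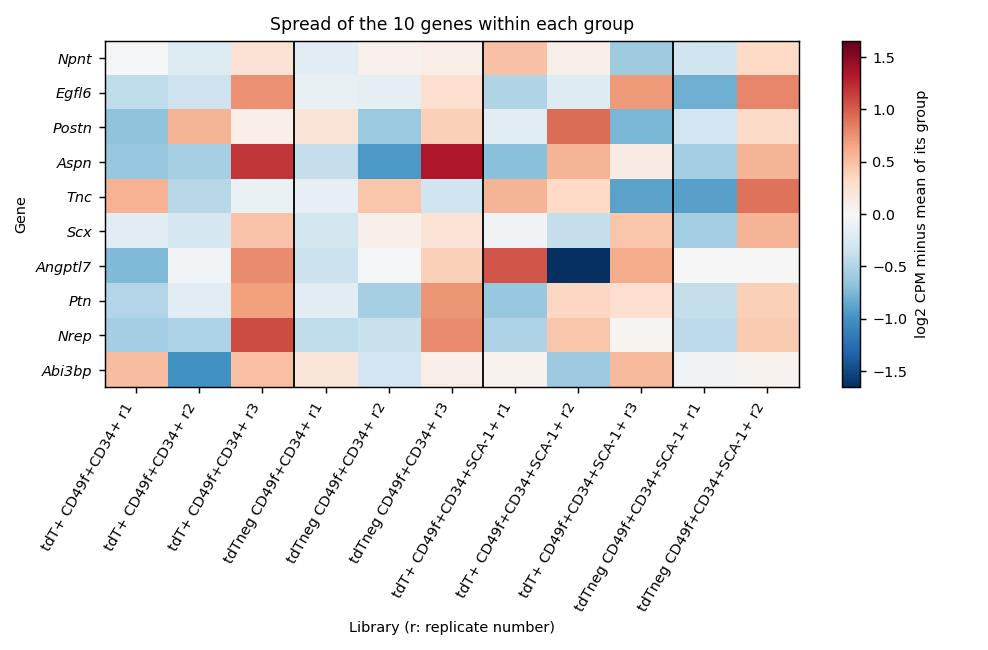
Log2 CPM of each gene minus the mean of its group, 1 column per library, with lines between the 4 groups. Aspn, Nrep and Ptn are red together in replicate 3 of both CD49f+CD34+ groups, and the darkest blue cell is Angptl7 in tdT+ CD49f+CD34+SCA-1+ replicate 2, which rests on 3 counts.

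The members were next set beside other matrix genes in 8 lists of 114 genes, of which 111 were tested. Across these lists 21 genes fell and 5 rose in CD49f+CD34+SCA-1+ cells, with a median of -0.33 on the log2 scale, so 18.9% were called lower against 6.79% of all genes. Without the 3 libraries high in Alb the split was 20 lower and 25 higher and the median 0.08, and without tdTneg CD49f+CD34+SCA-1+ replicate 1 only 16 genes were called in either direction. By list, leaving out those 3 libraries gave 6 higher and 6 lower among genes of elastic fibres and microfibrils, 5 and 3 in the basement membrane, 5 and 0 among receptors, 3 and 4 among matricellular genes, 3 and 1 in collagen processing, 2 and 3 in the tendon list, 1 and 1 among relatives and 0 and 2 among TGF-beta ligands. The splits given below are those with all libraries. In the fit without the 3 libraries all 5 endothelial markers were also called higher, and their part in the higher calls was not tested.

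Of 13 relatives, 2 fell, among them Angptl2 (log2 fold change -1.46 ± 0.13, edgeR adjusted p = 0.00017), and 1 rose, Tnxb, which encodes tenascin X (2.77 ± 0.33, 0.00059). Tgfbi, the closest relative of Postn, had a log2 fold change of -0.13 (adjusted p = 0.555) and Mdk, the relative of Ptn, of -0.75 (0.388). The small leucine-rich genes Dcn and Bgn, relatives of Aspn, had 0.34 (0.84) and -0.52 (0.244). Bgn went in opposite directions, with a log2 fold change of -2.21 within tdT+ cells (adjusted p = 0.0077) and of 1.17 within tdTneg cells (0.153).

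Of 14 receptors for these proteins 13 were tested, 1 rose and 1 fell. Ptprz1, a receptor of pleiotrophin, rose (2.66 on the log2 scale without the 3 libraries high in Alb) from means of 4.98 and 4.20 CPM in tdT+ and tdTneg CD49f+CD34+ cells to 19.9 and 15.96 CPM (log2 fold change 1.96 ± 0.39, edgeR adjusted p = 0.0069). Egfr fell by 1.12 ± 0.21 (edgeR adjusted p = 0.0051). Without the 3 libraries high in Alb its log2 fold change was -0.76, short of the fold threshold. Itga8, the receptor chain for nephronectin, was low at mean levels of 1.15 to 3.80 CPM (log2 fold change -1.31, adjusted p = 0.11), and its partner Itgb1 averaged 413 to 614 CPM (0.26, 0.102). Alk did not pass the filter.

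Of the tendon list, which held 13 genes of which 11 were tested, Mkx (log2 fold change -2.99 ± 0.57), Col14a1 (-2.99 ± 0.63) and Col12a1 (-1.33 ± 0.20) fell and 0 rose. Mkx encodes a tendon transcription factor and both collagens associate with fibrils. Their edgeR adjusted p-values were 0.0057, 0.0096 and 0.0017, and without the 3 libraries high in Alb the value of Col14a1 was -1.61 (0.032). Tnmd, which encodes tenomodulin and defines mature tendon cells, did not exceed 0.021 CPM in any library, and Mkx did not exceed 3.42 CPM. The summed level of 5 tendon markers was 0.72 to 8.52 CPM outside tdTneg CD49f+CD34+SCA-1+ cells and 27.2 to 29.0 CPM in these, where Comp made up most of it (mean 22.9 CPM).

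Markers of fibroblasts, the main dermal source of matrix, were also counted. Of 7 fibroblast markers 6 were tested and 0 were called between populations by edgeR, with a median log2 fold change of 0.42. Without the 3 libraries high in Alb the median was 1.30. Their summed level was 87.7 to 210.0 CPM in tdT+ and 85.6 to 267 CPM in tdTneg CD49f+CD34+ cells, 24.5 to 304 CPM in tdT+ and 196 to 444 CPM in tdTneg CD49f+CD34+SCA-1+ cells. Their part in the levels of the 10 genes was not tested.

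Lists of matrix assembly held most of the other calls. Of 16 genes of elastic fibres and microfibrils 6 fell, among them Ltbp2 (log2 fold change -3.80 ± 0.30, edgeR adjusted p = 0.00013), Mfap2 (-2.15), Fbln1 (-2.04) and Ltbp1 (-1.67), where the LTBP proteins hold latent TGF-beta in the matrix. The 1 gene that rose was Efemp1 (1.31). Of 27 basement membrane genes 3 fell, Col4a3 (-3.40 ± 0.47, adjusted p = 0.0012), Col4a4 (-3.07) and Col18a1 (-1.26), and 24 were not called. Without the 3 libraries high in Alb Col4a4 was at -3.70 and Col18a1 was no longer called (-0.89, adjusted p = 0.015). Among these 24, Col4a1 (-2.34), Col4a2 (-2.28) and Hspg2 (-1.25) fell within tdT+ cells (adjusted p = 0.0078, 0.0033 and 0.0033), where within tdTneg cells their values were 0.89, 0.67 and 0.91 (0.295, 0.337 and 0.0365). Of 14 matricellular genes 4 fell and 1 rose. Smoc1 (-3.59, and -2.16 without the 3 libraries high in Alb) and Ccn2 (-2.21) fell. Sparcl1 rose (2.79, and 4.54 without those libraries), but only through tdTneg cells, where its mean went from 1.13 to 111 CPM (6.61, adjusted p = 0.018) in the libraries high in endothelial markers. In tdT+ cells it went from 11.7 to 5.80 CPM (-1.02, 0.522). Vtn, which is also made by the liver, had -8.65 with all libraries and -0.56 (adjusted p = 0.63) without the 3 libraries high in Alb. Serpinh1 fell (-1.07) and P4ha2 rose (1.24) among 14 genes of collagen processing. Of the 3 TGF-beta ligands Tgfb3 fell (-1.49, adjusted p = 0.034).

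**Figure D5:**
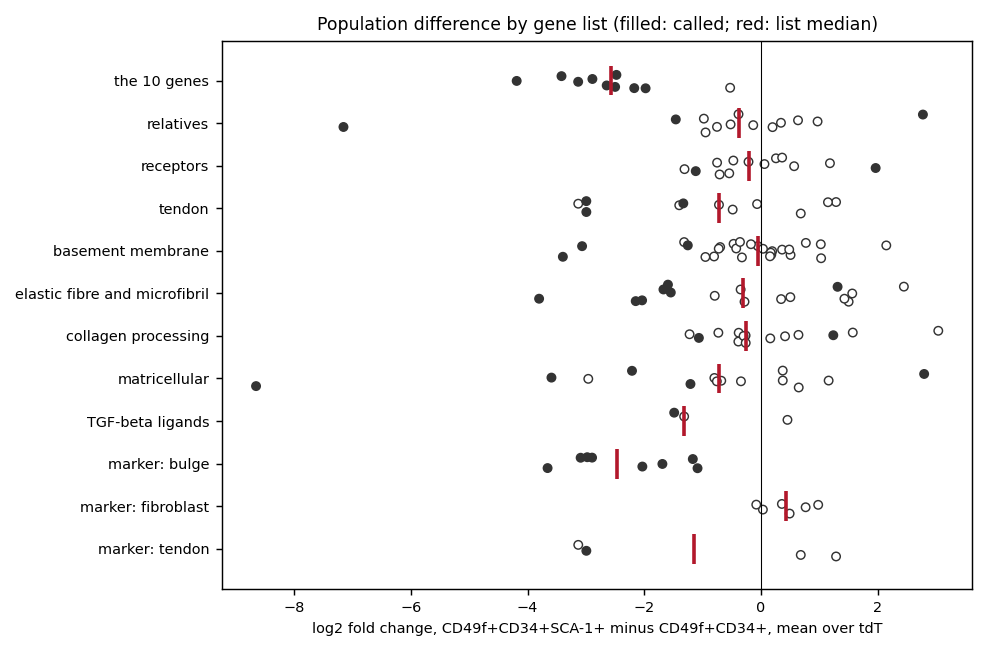
Log2 fold change of CD49f+CD34+SCA-1+ over CD49f+CD34+ cells, mean over tdT, 1 point per tested gene, for the 10 genes, the 8 other matrix lists and 3 marker lists; filled points were called by edgeR and red lines are medians. The median of the 10 genes (-2.57) lies near that of the bulge markers (-2.46), and that of the basement membrane list is -0.05.

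The 5 genes outside the list whose log2 CPM over the 11 libraries was most like the mean pattern of the 10 genes were Gm973 (Pearson r = 0.995), Gm11627 (0.994), Ift81 (0.994), Fzd1 (0.994) and Zfp275 (0.991). Of the 10 themselves, Nrep (0.988) and Scx (0.986) were closest to that mean, and Tnc (0.839) and Abi3bp (0.615) farthest. Each of the 10 enters that mean, which raises its own correlation, so these values do not compare with those of the 5 other genes. These correlations are over libraries of the same sorts and are given as a description.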

How the data were processed

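From FACS-sorted cells 11 RNA libraries (TruSeq RNA v2) were sequenced. The authors aligned reads to mm10 with STAR and counted them per Ensembl 96 gene with featureCounts. The deposited values are raw counts per gene, with no normalization; the strand setting is not given in the sources used here. Groups came from the labels. One row outside the Ensembl genes, 0.00021% to 0.0307% of each library, was kept out of totals and tests.

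The quasi-likelihood test of edgeR 4.0.16 under R 4.3.3 was used (filterByExpr, TMM, glmQLFit, glmQLFTest, 1 mean for each of the 4 groups), over all 20307 genes that passed. A gene was called at a Benjamini-Hochberg adjusted p under 0.05 with a log2 fold change beyond 1 in either direction. Normalized CPM are counts scaled by the TMM library size, and log2 CPM used a prior count of 2. DESeq2 1.42.0, RLE size factors, 2 other filters, no fold threshold, a replicate block, only the groups compared and each library left out were alternatives. Leaving out the 3 libraries with Alb over 1000 CPM was added after seeing the data. P-values measure the spread between libraries, which the main fit took as independent. Libraries with the same replicate number were read as sharing a pool of 2 mice, which only the replicate block takes into account. Totals of 17409131 to 46542177 counts set the depth. Standard errors were derived from the log2 fold change and the F statistic of the test, and confidence intervals of 95% from these. Leaving out a tdTneg CD49f+CD34+SCA-1+ library left 1, and leaving out the 3 libraries high in Alb left 1 of tdT+ CD49f+CD34+ cells. Such a group was assumed to vary like the others.

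The methods give 3 replicates of 2 mice in total, so the replicate number was read as a shared pool of mice. Deviations from group means correlated between same-numbered libraries with a median r of 0.083 (15 pairs, -0.42 to 0.59) and between others of -0.023 (30 pairs).

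The members and lists were chosen with earlier results of these data known, and Scx, Postn, Aspn, Nrep, Ptn and Abi3bp are among genes the study itself displays for these libraries. Named genes were the 10 members, up to 4 called genes with the largest absolute change per list, receptors or relatives whose role is described, and the 5 genes most like the members' mean. Efemp1, Col4a1, Col4a2, Hspg2 and the single bulge, tendon and fibroblast markers were named outside this rule, after their values were seen. The values of 1 gene of the lists are not reported here.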

Additional observations from a re-analysis of the deposited data

Results flagged for a closer look

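The row outside the Ensembl genes, which no comparison used, exceeded the highest tdTneg library (4.89 CPM) in 5 of the 6 tdT+ libraries. It held 133 CPM in tdT+ CD49f+CD34+ replicate 1 and 252 CPM in replicate 3, and 254, 224 and 307 CPM in the 3 tdT+ CD49f+CD34+SCA-1+ libraries. The library labelled tdT+ CD49f+CD34+ replicate 2 held 2.05 CPM, below the lowest tdTneg library (2.54 CPM).

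For Aspn the tdT effect pointed in opposite directions in the 2 populations. The tdT+ library was above the tdTneg library of the same number in all 3 pairs of CD49f+CD34+ cells and below it in both pairs of CD49f+CD34+SCA-1+ cells, and the difference of the effects was -2.79 on the log2 scale (edgeR adjusted p = 0.296, DESeq2 0.039). One of these pairs holds the library labelled tdT+ CD49f+CD34+ replicate 2. With it left out the difference was -3.07 for Aspn (edgeR adjusted p = 0.339). With each library left out in turn the difference ran from -3.79 to -1.93. The tdT effect then ran from 0.37 to 2.23 within CD49f+CD34+ cells and from -2.03 to -0.94 within CD49f+CD34+SCA-1+ cells.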

How the results depend on the processing

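Over the 60 results of single genes, 1114 alternatives were computed, and 30 of them, in 8 results, turned the direction; 0 of these 8 results had been called. The replicate block called 6 of the 10 genes within tdTneg cells in place of 3 and added Nrep in the tdT comparison of CD49f+CD34+SCA-1+ cells; it changed no other call of the 10 genes by edgeR. The RLE factors moved the median of all genes in the difference of the tdT effects by -0.12 on the log2 scale and by under 0.1 elsewhere. The cause of the changes below was not tested.

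Of the 10 genes, DESeq2 called 8 within tdTneg cells, 2 and 5 in the tdT comparisons of CD49f+CD34+ and CD49f+CD34+SCA-1+ cells and 2 in the difference of the effects. Keeping every gene with a count gave 8, 2, 4 and 2, and at least 10 counts in every library gave 5 within tdTneg cells. Without the 3 libraries high in Alb there were 7 within tdTneg cells. With each library left out, the counts ran from 8 to 9 for the population mean, 9 to 10 within tdT+ cells, 0 to 6 within tdTneg cells and 0 to 3 in the tdT comparison of CD49f+CD34+SCA-1+ cells. For the other matrix lists they ran from 16 to 31, with 45 without the 3 libraries high in Alb.

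Of all genes, DESeq2 called 3540 for the population mean, 3423 within tdT+ and 2136 within tdTneg cells, 373 and 1199 in the tdT comparisons of CD49f+CD34+ and CD49f+CD34+SCA-1+ cells and 825 in the difference of the effects, where edgeR called 2347, 1715, 963, 2, 470 and 79. With no fold threshold 3917 were called for the population mean. In the tdT comparison of CD49f+CD34+ cells 5 were called with RLE factors, 166 with every gene with a count, 20 with at least 10 counts in every library, 4 with the replicate block, 0 with only the groups compared and 34 without the 3 libraries high in Alb. In that of CD49f+CD34+SCA-1+ cells, 885 were called both with every gene with a count and with only the groups compared, and 1149 without those 3 libraries. In the difference the counts were 568 with every gene with a count, 263 with at least 10 counts in every library and 218 without those 3 libraries, and within tdTneg cells 1452 with only the groups compared and 1820 without those 3 libraries. With each library left out they ran from 1160 to 2510 for the population mean, 1174 to 2233 within tdT+ cells, 55 to 1300 within tdTneg cells, 0 to 7 and 97 to 700 in the tdT comparisons and 1 to 376 in the difference.

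Of the 8 results whose direction turned, 5 were in the tdT comparison of CD49f+CD34+ cells, 1 within tdTneg cells and 2 in the difference of the effects. Egfl6 (-0.05) was 0.039 in DESeq2, 0.038 with RLE factors, 0.048 with at least 10 counts in every library, 0.53 without the 3 libraries high in Alb and -0.54 to 0.16 with each library left out. Ptn (-0.01) was 0.077, 0.077, 0.091 and 0.33 in the same fits, 0.036 with only the groups compared and -0.43 to 0.45 with each library left out. Postn (0.04) was -0.10 with the replicate block, -0.18 without the 3 libraries high in Alb and -0.27 to 0.31 with each library left out. Nrep (0.03) was -0.049 with the replicate block and -0.73 to 0.54 with each library left out, and Angptl7 (0.18) was -0.30 to 0.48. Elsewhere, Abi3bp within tdTneg cells (-0.23) was 0.010 with the replicate block, and in the difference of the effects Npnt (0.21) was -0.11 without the 3 libraries high in Alb and -0.068 to 0.55 with each library left out, and Tnc (-1.05) was -1.67 to 0.083.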

Other observations

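Several matrix genes outside the 10 also differed between tdT+ and tdTneg CD49f+CD34+SCA-1+ cells. By edgeR, 6 of 27 basement membrane genes, 5 of 16 of elastic fibres and microfibrils and 2 of 14 matricellular genes were called lower in tdT+ cells. So were 2 of 14 in collagen processing, 2 of 13 relatives and 0 in the receptor, tendon and TGF-beta lists. In each list 0 were called higher, and 2.06% of all genes were called lower. Bgn, encoding the small leucine-rich proteoglycan biglycan, averaged 24.5 CPM in tdT+ and 563 CPM in tdTneg cells (log2 fold change -4.52, edgeR adjusted p = 0.0014). Ltbp2 averaged 7.41 and 47.3 CPM (-2.66, 0.0063) and Ccn2, encoding connective tissue growth factor, 43.9 and 247 CPM (-2.50, 0.010). In the same tdTneg libraries the endothelial markers were highest, and their part in these differences was not tested.

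Of the markers of other cells, all 5 of T cells and all 4 of Langerhans cells were called higher in CD49f+CD34+SCA-1+ than in CD49f+CD34+ cells. For melanocytes 2 of 4 were called lower, for smooth muscle and mural cells 1 of 6 lower and for Schwann cells 1 of 4 higher. Of the keratinocyte markers 2 of 5 were called higher and of the endothelial markers 0 of 5.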
